A study of Mus musculus with 12 samples.

Results

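The 9 apolipoprotein genes Apoa1, Apoa2, Apoa4, Apoa5, Apob, Apoc1, Apoc3, Apoe and Apom, and Mttp, which encodes the large subunit of microsomal triglyceride transfer protein, were examined in mouse liver. They were selected by gene name, and all 10 were found among the 55385 features of the expression table. Liver RNA was sequenced in 3 groups of 4 libraries after injection of adenovirus, to ask whether the human long noncoding RNA hGULL can take the place of its mouse counterpart mGULL. The groups were a control group (Ad-Ctrl), a group with a short hairpin RNA against mGULL (Ad-shmGULL, the knockdown) and a group with that hairpin and hGULL (Ad-shmGULL+hGULL, the rescue).

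The animals were male C57BL/6 mice 7 weeks of age, with no engineered allele named. Control mice received a Lac virus together with the pAdv5 virus, knockdown mice the shmGULL virus together with pAdv5, and rescue mice the shmGULL virus together with the hGULL virus. The total dose was 500000000 active viral particles in every group, and livers were taken on day 7. All groups therefore carried adenovirus, and the sources name different injection routes. The labels do not say that each library came from a separate mouse, so the p-values measure the spread between these samples. No promoter that restricts the hairpin or hGULL to hepatocytes is named. Of the 55385 features, 0 carry the name mGULL or hGULL, so the knockdown was not checked from a named feature.

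The liver exports triglyceride and cholesteryl ester in very low density lipoprotein (VLDL). Each VLDL particle is built in the endoplasmic reticulum around a single molecule of apolipoprotein B, onto which microsomal triglyceride transfer protein loads lipid while the protein is being made. Smaller, exchangeable apolipoproteins sit on the surface of these particles and of high density lipoprotein (HDL), where they activate or inhibit the enzymes that process the lipid and serve as ligands for the receptors that clear the particles.

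Levels are given as TPM, a unit that divides reads by transcript length and sets every sample to the same total, and the sequencing depth is unknown. Fold changes are differences in mean log2(TPM + 1), which understates the change of low genes. They were tested with limma over the 16378 genes with a mean TPM of at least 1, among them all 10 selected genes, and p-values were adjusted over those 16378 genes. A gene was called at an adjusted p under 0.05. The fold rule, the threshold used in the study's methods, requires both a log2 difference larger than 0.5, up or down, and an unadjusted p under 0.05. Single genes were also compared with a two-sided exact permutation test, which with 4 against 4 samples cannot go below 0.0286.

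The selected genes were abundant in all 12 libraries. Apoa2 was the gene with rank 4 of the table by mean TPM, Apoa1 had rank 6 and Apoe rank 7, while Mttp had rank 355 and Apoa4 rank 464. Together the 10 genes made up 5.11% ± 0.613 of the total in control, 4.46% ± 0.609 in knockdown and 4.42% ± 0.304 in rescue (SD, n = 4). The samples of the 3 groups overlapped in this share, which ran from 4.63% to 5.93%, from 3.83% to 5.20% and from 4.18% to 4.82%. All 37 mitochondrial features were at 0 in every sample, so these shares and ranks are of a total without mitochondrial RNA. Of the hepatocyte marker list, 10 of 10 genes were tested and Alb, the gene of serum albumin, was the most abundant with a mean of 56810 TPM over the 12 samples.

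With knockdown of mGULL, Mttp rose, and no other selected gene passed the adjusted threshold. The call of 1 of 10 genes compares with 3.23% of all tested genes called in either direction and 2.44% called higher. Under the fold rule 2 of the 10 genes were higher (Mttp and Apoa4) and 1 was lower (Apoa1), against 5.35% and 2.30% of all tested genes. The samples of the 2 groups did not overlap for 1 gene with higher values (Mttp) and 1 gene with lower values (Apom), against 6.93% and 2.06% of all tested genes. The median log2 fold change was -0.077 over the 10 genes and 0.087 over all tested genes, and 7 of the 10 genes had a lower mean log2 level in the knockdown.

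With hGULL added to the knockdown, 0 of the 10 genes differed from the knockdown past either threshold. limma called 0 of 10 genes in rescue against knockdown, as it called 0 (0%) of all tested genes, of which 1757 had an unadjusted p under 0.05. The fold rule took 0 of the 10 genes against 3% of all tested genes, and 0 of the 10 genes had an unadjusted p under 0.05. For 0 of 10 genes the samples of the 2 groups did not overlap, against 6.38% of all tested genes. The log2 fold changes of the 10 genes lay between -0.32 (Apoa4) and 0.22 (Apoc1). The median of all tested genes was 0.093 in this comparison. After it was subtracted the 10 genes lay between -0.41 (Apoa4) and 0.12 (Apoc1), with Mttp at -0.22 and Apob at 0.11.

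In rescue against control, Mttp was again the 1 gene of 10 that was called, against 2.15% of all tested genes in either direction and 2.12% called higher. The fold rule took 1 gene higher (Mttp) and 1 gene lower (Apoa1), against 6.84% and 0.641% of all tested genes. The samples did not overlap for 1 gene with higher values (Mttp) and 2 genes with lower values (Apoa1 and Apoa5), against 21.4% and 0.855%. The median of all tested genes was itself higher by 0.17 in this comparison, and by -0.0055 after median-of-ratios scaling, while the median over the 10 genes was -0.11. Changes against control are therefore also given after subtracting the median of all tested genes, with Mttp, Apoa1 and the rescue value of Apoa5 below. For rescue minus control this gave 0.33 for Apoa4, 0.05 for Apob, -0.17 for Apoc3, -0.28 for Apoc1, -0.29 for Apoa2, -0.34 for Apoe and -0.35 for Apom. For knockdown minus control it gave 0.73 for Apoa4, -0.07 for Apob, -0.09 for Apoc3, -0.13 for Apoa2, -0.19 for Apoe, -0.26 for Apoa5, -0.32 for Apom and -0.41 for Apoc1. Knockdown and rescue were compared with the same 4 control samples, so the comparisons with control share their reference.

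**Figure D1:**
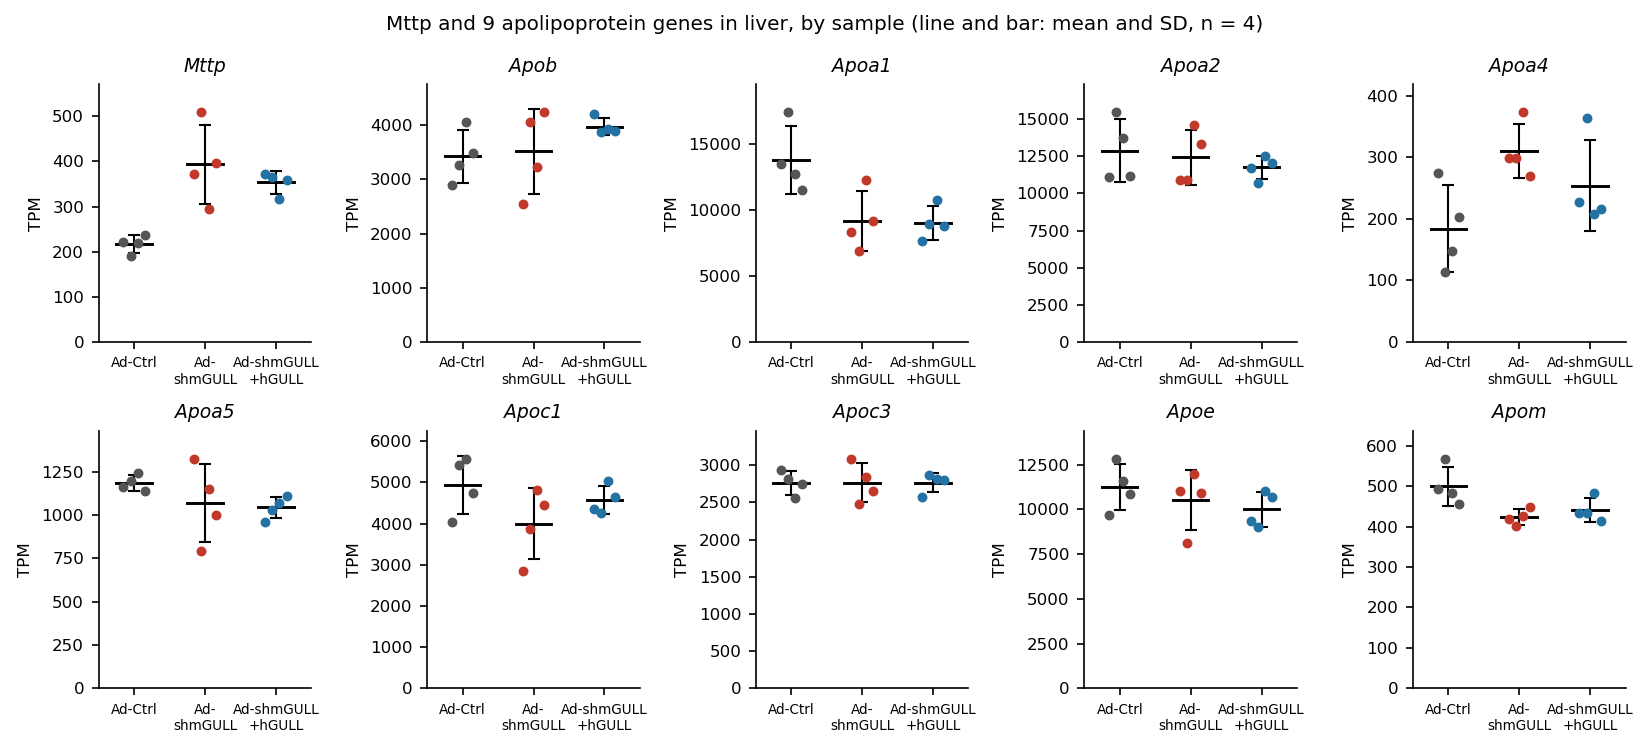
TPM of each selected gene (vertical axes, each from 0) in the 4 samples of the control (Ad-Ctrl), knockdown (Ad-shmGULL) and rescue (Ad-shmGULL+hGULL) groups, with the mean as a line and the SD as a bar. Mttp was between 189.4 and 237.0 TPM in the control samples and at or above 295.4 TPM in every knockdown and rescue sample, while Apoc3 stayed between 2485 and 3091 TPM in all groups.

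**Figure D2:**
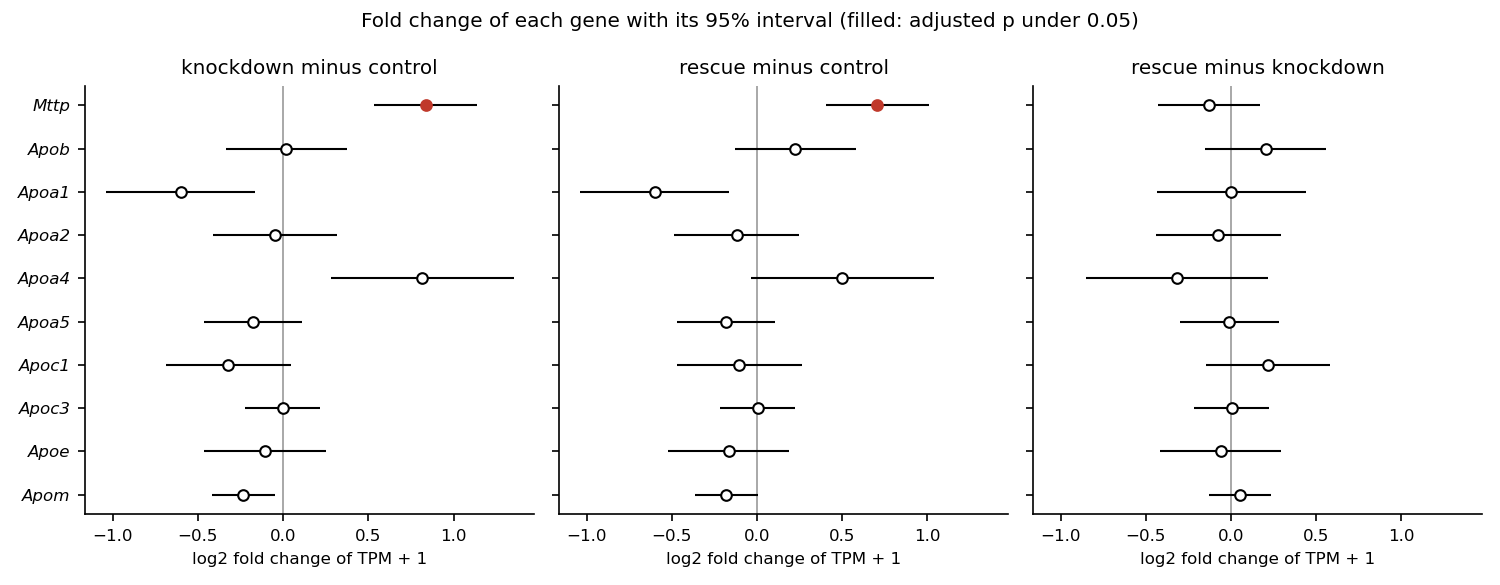
Log2 fold change of TPM + 1 (horizontal axis) of each selected gene in the 3 comparisons, with the 95% interval of the limma fit as a line and filled points for an adjusted p under 0.05. Only Mttp has filled points, at 0.84 in knockdown minus control and at 0.71 in rescue minus control.

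Mttp (ENSMUSG00000028158.14) loads lipid onto apolipoprotein B in the endoplasmic reticulum, the step without which VLDL is not secreted. Its levels in the Ad-Ctrl samples were 220.4, 189.4, 219.4 and 237.0 TPM. In the Ad-shmGULL samples they were 371.8, 509.4, 295.4 and 396.3 TPM, and in the Ad-shmGULL+hGULL samples 372.3, 365.4, 316.0 and 359.9 TPM. Every sample with the hairpin, with or without hGULL, was above every control sample, and the rescue samples lay inside the range of the knockdown samples. The knockdown spread was wide, with replicate 2 at the top and replicate 3 at the bottom.

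The Mttp means were 216.5 ± 19.8 TPM in Ad-Ctrl, 393.2 ± 88.6 in Ad-shmGULL and 353.4 ± 25.5 in Ad-shmGULL+hGULL (SD, n = 4). Knockdown minus control gave a log2 fold change of 0.84 (95% interval 0.54 to 1.14, limma adjusted p = 0.0119, exact permutation p = 0.0286), or 0.75 above the median of all tested genes. This call was kept when any 1 of the 12 libraries was left out, and was lost at an adjusted p of 0.0572 when only the 2 groups were fitted; over all 23 alternatives the adjusted p ran from 0.00543 to 0.0572. Rescue minus knockdown was -0.13 (-0.43 to 0.17, exact permutation p = 0.486), an interval that holds 0 and does not reach the size of the knockdown difference.

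Rescue minus control was 0.71 for Mttp (0.41 to 1.01, limma adjusted p = 0.0390, exact permutation p = 0.0286), or 0.53 above the median of all tested genes. The direction was the same in all 23 alternatives, but the call was kept in 8 of them, with adjusted p-values from 0.0047 to 0.142. It was lost without Ad-Ctrl replicate 2 (adjusted p = 0.123), replicate 3 (0.102) or replicate 4 (0.0797), and without Ad-shmGULL replicate 4 (0.0532). Leaving out Ad-shmGULL+hGULL replicate 1 (0.141), replicate 2 (0.142), replicate 3 (0.0658) or replicate 4 (0.0644) also lost it, as did median-of-ratios scaling, where the fold change of Mttp was 0.50 (0.108).

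Mttp lies on the minus strand of chromosome 3 at chr3:138089855-138143418 in GRCm38.p6, the build of the deposited values. Apoa1, at chr9:46228630-46230469, and Apoa4, at chr9:46240844-46243458, lie on the plus strand of the same cluster of genes. The promoters of these 3 genes, which the results turn on, are given here as the 250 bases before the start of the gene, 5′ to 3′ on the strand of the gene, from RefSeq for GRCm38.p6. They cover chr3:138143419-138143668 (minus strand), chr9:46228380-46228629 (plus strand) and chr9:46240594-46240843 (plus strand), and capitals mark a match to one of the motifs searched.
Mttp: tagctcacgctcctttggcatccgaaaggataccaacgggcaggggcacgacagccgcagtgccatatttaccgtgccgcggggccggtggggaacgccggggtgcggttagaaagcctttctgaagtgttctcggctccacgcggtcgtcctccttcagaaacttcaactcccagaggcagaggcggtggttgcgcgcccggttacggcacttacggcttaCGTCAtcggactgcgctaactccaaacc
Apoa1: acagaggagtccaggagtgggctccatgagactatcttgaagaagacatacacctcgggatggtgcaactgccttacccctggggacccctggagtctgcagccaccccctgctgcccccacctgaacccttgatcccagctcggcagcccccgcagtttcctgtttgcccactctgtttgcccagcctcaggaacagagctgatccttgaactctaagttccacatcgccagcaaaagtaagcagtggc
Apoa4: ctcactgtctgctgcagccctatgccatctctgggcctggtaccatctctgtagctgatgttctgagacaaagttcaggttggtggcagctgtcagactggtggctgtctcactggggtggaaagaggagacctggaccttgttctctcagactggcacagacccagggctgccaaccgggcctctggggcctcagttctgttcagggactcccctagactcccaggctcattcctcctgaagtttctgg

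The motifs were searched on both strands in the promoters of the selected genes, of which 8 of 10 had an entry in the table, with 12 promoters between them. The names missing were Apoc1 and Apoc3. The cAMP response element TGACGTCA was found in 1.55% of all 32851 promoters of this length, and its shorter core TGACG, which lies within it, in 17.8%. The Mttp promoter holds 1 match to TGACG, from base -28 to base -24 and on the strand opposite to the gene, where it reads CGTCA. Apoa2 was the other selected gene with TGACG, and none held TGACGTCA.

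The other 7 motifs had no match in the promoters of Mttp, Apoa1 and Apoa4. The sterol response element TCACNCCAC (1.05% of all promoters) and the HNF4A motif CAAAGTCCA (0.384%) had no match in any selected gene. The E-box CACGTG (6.02%) was found in Apoa5, the forkhead motif TGTTTAC (3.17%) and the nuclear receptor motif AGGTCA (14%) in Apoa2, the HNF1 motif GTTAAT (6.43%) in Apoe, and the TATA box TATAAA (12.4%) in Apoa2, Apoa5, Apob and Apoe. A match is a description of letters in these windows and was not tested for binding. The GC content of the windows was 61.2% for Mttp, 58% for Apoa1 and 57.6% for Apoa4.

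Apob (ENSMUSG00000020609.14), the structural protein on which VLDL is built, did not differ beyond the spread between samples. Its means were 3427 ± 488, 3519 ± 789 and 3974 ± 154 TPM in control, knockdown and rescue, and the knockdown samples alone ran from 2543 to 4244 TPM. The log2 fold changes of Apob were 0.02 (95% interval -0.34 to 0.38) in knockdown minus control, 0.20 (-0.15 to 0.56) in rescue minus knockdown and 0.22 (-0.13 to 0.58) in rescue minus control. In median-of-ratios scaling the knockdown difference of Apob was -0.09 and the rescue difference from control 0.02, and without Ad-shmGULL replicate 1 rescue minus knockdown was 0.06.

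The ratio of Mttp to Apob within a sample, which no rescaling of a sample can change, was chosen after the values had been seen. It was 0.0760, 0.0580, 0.0540 and 0.0680 in the Ad-Ctrl samples, 0.146, 0.125, 0.0917 and 0.0934 in the Ad-shmGULL samples, and 0.0886, 0.0943, 0.0803 and 0.0926 in the Ad-shmGULL+hGULL samples. All samples of both hairpin groups lay above all control samples, and the ranges of knockdown and rescue overlapped. The log2 ratio of Mttp to Apob was higher than in control by 0.82 in knockdown and by 0.49 in rescue (exact permutation p = 0.0286 for each), and was -0.33 in rescue minus knockdown (p = 0.143), or -0.20 without Ad-shmGULL replicate 1.

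Apoa1 (ENSMUSG00000032083.8) encodes the main protein of HDL and the activator of the enzyme that esterifies its cholesterol. In the Ad-Ctrl samples it stood at 13466, 17421, 12700 and 11478 TPM. In the Ad-shmGULL samples it stood at 8331, 6897, 12260 and 9151 TPM, and in the Ad-shmGULL+hGULL samples at 7642, 8953, 10783 and 8758 TPM. All 4 rescue samples were below all 4 control samples, while Ad-shmGULL replicate 3 was above the lowest control sample, so knockdown and control overlapped by that sample.

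The Apoa1 means were 13766 ± 2570, 9160 ± 2267 and 9034 ± 1301 TPM, and the knockdown mean was 66.5% of the control mean. The log2 fold change was -0.60 in knockdown minus control (95% interval -1.04 to -0.16, limma adjusted p = 0.115, exact permutation p = 0.0571) and -0.60 in rescue minus control (-1.04 to -0.16, limma adjusted p = 0.104, exact permutation p = 0.0286). Relative to the median of all tested genes these were -0.69 and -0.77. Apoa1 met the fold rule in both comparisons with control and missed the adjusted threshold in both. In both comparisons it no longer met the fold rule with no filter, with quantile normalization (-0.32 and -0.26), with array weights or without Ad-Ctrl replicate 2, and in knockdown minus control also without Ad-shmGULL replicate 2. Without Ad-shmGULL replicate 3 the knockdown difference of Apoa1 was -0.75 with an adjusted p of 0.0452, the lowest of 23 alternatives, which reached 0.426.

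Rescue minus knockdown was 0.00 for Apoa1, with an interval from -0.44 to 0.44. A difference of 0.60 in size lies outside this interval. The knockdown difference of -0.60 itself had an interval from -1.04 to -0.16, which includes sizes that lie inside it. The sign of this small difference turned to -0.09 under median-of-ratios scaling, and with 1 library left out the value ran from -0.13 (without Ad-shmGULL replicate 2) to 0.15 (without Ad-shmGULL replicate 3).

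Apoa2 (ENSMUSG00000005681.12), the other abundant HDL protein, had means of 12882 ± 2130, 12448 ± 1860 and 11751 ± 789 TPM, and the samples of all groups overlapped between 11114 and 12541 TPM. Its log2 fold change was -0.05 (95% interval -0.41 to 0.32) in knockdown minus control and -0.12 (-0.48 to 0.24) in rescue minus control. Under quantile normalization these values of Apoa2 became 0.26 and 0.46, and under median-of-ratios scaling -0.16 and -0.33. Apom (ENSMUSG00000024391.7), which carries sphingosine 1-phosphate on HDL, stood between 454.9 and 568.0 TPM in control, between 401.2 and 449.1 in knockdown and between 412.8 and 482.8 in rescue. Every knockdown sample of Apom was below every control sample, by a log2 difference of -0.23 (-0.42 to -0.05, limma adjusted p = 0.141, exact permutation p = 0.0286), which did not pass the adjusted threshold. Rescue minus control was -0.18 for Apom (-0.36 to 0.00, exact permutation p = 0.0571), with rescue replicate 3 inside the control range, and -0.38 under median-of-ratios scaling.

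Apoa4 (ENSMUSG00000032080.6), an apolipoprotein of triglyceride-rich particles and HDL, was the least abundant of the 10 genes. It stood at 273.4, 113.1, 146.9 and 202.2 TPM in the Ad-Ctrl samples. It stood at 298.2, 298.4, 373.2 and 269.5 TPM in the Ad-shmGULL samples and at 227.4, 363.5, 207.4 and 215.9 TPM in the Ad-shmGULL+hGULL samples. The knockdown samples were higher than 3 of the 4 control samples, and Ad-Ctrl replicate 1 lay just above the lowest of them. In the rescue group replicate 2 stood far above the other 3 samples, which lay inside the control range.

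The Apoa4 means were 183.9 ± 70.1, 309.8 ± 44.4 and 253.6 ± 73.8 TPM. Its log2 fold change of 0.82 in knockdown minus control (95% interval 0.28 to 1.35, limma adjusted p = 0.0874, exact permutation p = 0.0571) met the fold rule and missed the adjusted threshold. Without Ad-Ctrl replicate 1 it was 1.03 with an adjusted p of 0.0254, the lowest of 23 alternatives, which reached 0.219. Rescue minus knockdown was -0.32 (-0.85 to 0.22, exact permutation p = 0.171) and rescue minus control 0.50 (-0.04 to 1.04, limma adjusted p = 0.224, exact permutation p = 0.2). Without rescue replicate 2 the rescue minus knockdown value of Apoa4 was -0.50.

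Apoc3 (ENSMUSG00000032081.10), an inhibitor of lipoprotein lipase and of particle uptake, had nearly the same level in the 3 groups. Its means were 2764 ± 159, 2767 ± 261 and 2769 ± 130 TPM, and its log2 fold change was 0.00 in all 3 comparisons (95% interval -0.22 to 0.22 in each). Under median-of-ratios scaling Apoc3 was -0.11 in knockdown minus control and -0.20 in rescue minus control, and under quantile normalization 0.15 in knockdown minus control. Apoa5 (ENSMUSG00000032079.12), which aids lipoprotein lipase, had means of 1185 ± 45.0, 1068 ± 226 and 1044 ± 62.9 TPM. All rescue samples of Apoa5, from 962.8 to 1110 TPM, lay below all control samples, from 1139 to 1242 TPM, and the knockdown samples ran from 795.1 to 1327 TPM across both ranges. Rescue minus control was -0.18 (-0.47 to 0.10, limma adjusted p = 0.395, exact permutation p = 0.0286), or -0.36 relative to the median of all tested genes, and knockdown minus control was -0.17 (-0.46 to 0.11). The knockdown value of Apoa5 ran from -0.29 without Ad-shmGULL replicate 1 to -0.04 without Ad-shmGULL replicate 2, and its rescue minus control value was -0.39 under median-of-ratios scaling.

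Apoa1, Apoc3, Apoa4 and Apoa5 lie in this order within 43292 bases of chromosome 9, from 46228630 to 46271921. By position on the chromosome, 2580 bases lie between Apoa1 and Apoc3, and 5207 bases between Apoc3 and Apoa4. These neighbours had unlike values, and none was called. In knockdown minus control the log2 fold changes along the cluster were -0.60, 0.00, 0.82 and -0.17, and in rescue minus control -0.60, 0.00, 0.50 and -0.18. Of the genes around this cluster and the one on chromosome 7, 10 of 11 were tested and 0 were called in any comparison, with a median log2 fold change of 0.05 in knockdown minus control and 0.13 in rescue minus control.

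Ratios to Apoc3, chosen after the values had been seen, set its neighbours against a gene of the same cluster in the same sample. Apoa1 to Apoc3 was 4.58, 6.20, 4.97 and 4.18 in Ad-Ctrl, 2.70, 2.78, 4.31 and 3.46 in Ad-shmGULL and 2.96, 3.12, 3.83 and 3.12 in Ad-shmGULL+hGULL. Every rescue sample and 3 of 4 knockdown samples lay below every control sample (exact permutation p = 0.0286 and 0.0571). Apoa4 to Apoc3 had means of 0.0661 ± 0.0225, 0.112 ± 0.0161 and 0.0913 ± 0.0242, and for this ratio all knockdown samples, from 0.0965 upwards, lay above all control samples, of which the highest was 0.0930 (exact permutation p = 0.0286, and 0.2 in rescue minus control). Apoa4 alone overlapped between knockdown and control (exact permutation p = 0.0571). The p-values of ratios chosen on these values, here and for Mttp to Apob, are a description.

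**Figure D3:**
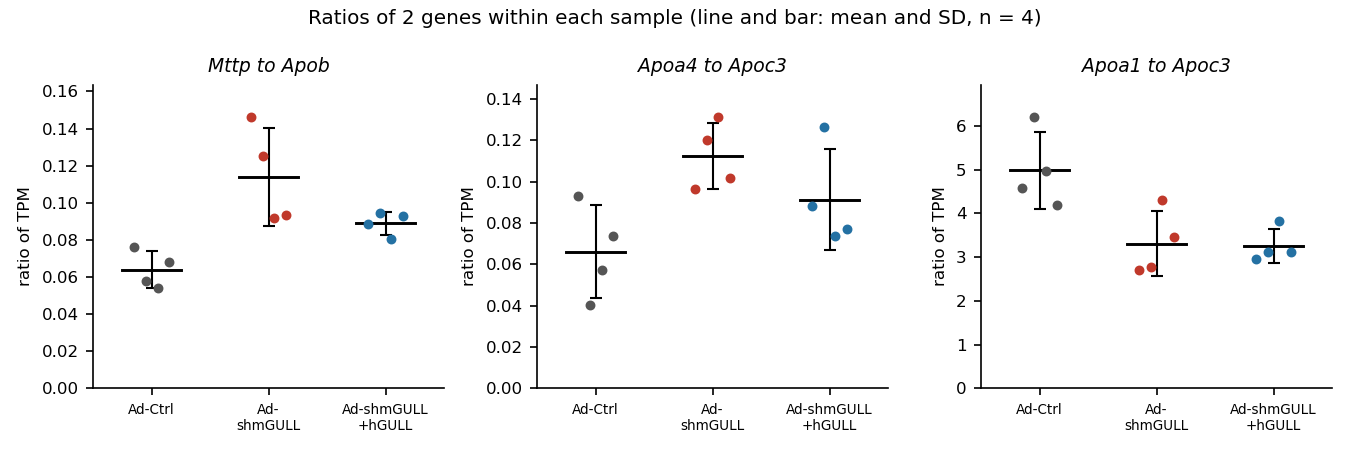
Ratio of the TPM of 2 genes within each sample (vertical axes, from 0) for Mttp to Apob, Apoa4 to Apoc3 and Apoa1 to Apoc3, with the mean as a line and the SD as a bar. The Mttp to Apob ratio averaged 0.0640 in Ad-Ctrl, 0.114 in Ad-shmGULL and 0.0890 in Ad-shmGULL+hGULL, and Apoa1 to Apoc3 averaged 4.98, 3.31 and 3.26.

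Apoc1 (ENSMUSG00000040564.14) and Apoe (ENSMUSG00000002985.16), the remaining pair, lie 3584 bases apart on chromosome 7. Apoc1 encodes a small surface protein that slows receptor-mediated uptake of particles, and had means of 4950 ± 705, 4003 ± 853 and 4575 ± 352 TPM. Its samples overlapped between all groups, and the log2 fold change was -0.32 (95% interval -0.69 to 0.04, limma adjusted p = 0.310) in knockdown minus control and 0.22 (-0.15 to 0.58) in rescue minus knockdown. Without Ad-shmGULL replicate 1 these values of Apoc1 were -0.17 and 0.06. Apoe encodes the ligand through which remnant particles bind the low density lipoprotein receptor, and had means of 11254 ± 1312, 10513 ± 1677 and 10013 ± 987 TPM. Its log2 fold changes were -0.11 (-0.46 to 0.25) in knockdown minus control and -0.17 (-0.52 to 0.19) in rescue minus control. Under quantile normalization the sign of these values of Apoe turned, to 0.10 and 0.27, and under median-of-ratios scaling they were -0.22 and -0.37.

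Samples of the same group differed from each other in a way that several of these genes shared. In the knockdown group replicate 2 had the highest Mttp (509.4 TPM), the lowest Apoa1 (6897 TPM), the lowest Apoa5 (795.1 TPM) and the lowest Apoe (8102 TPM), and replicate 3 had the highest Apoa1 (12260 TPM) and the lowest Mttp (295.4 TPM). After each group's own mean of log2(TPM + 1) was subtracted, Apoa1 and Mttp had a Pearson r of -0.922 and a Spearman rho of -0.762 over the 12 samples, and r = -0.848 without the 2 samples farthest from the median of Apoa1. Apob and Apoc3 had r = -0.920, rho = -0.923 and r = -0.936 with 10 samples left, and Apoe and Mttp had r = -0.843, rho = -0.860 and r = -0.790. These are the 3 strongest of 45 pairs of the selected genes and are given as a description, without a p-value, since values relative to one fixed total are not independent between abundant genes.

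**Figure D4:**
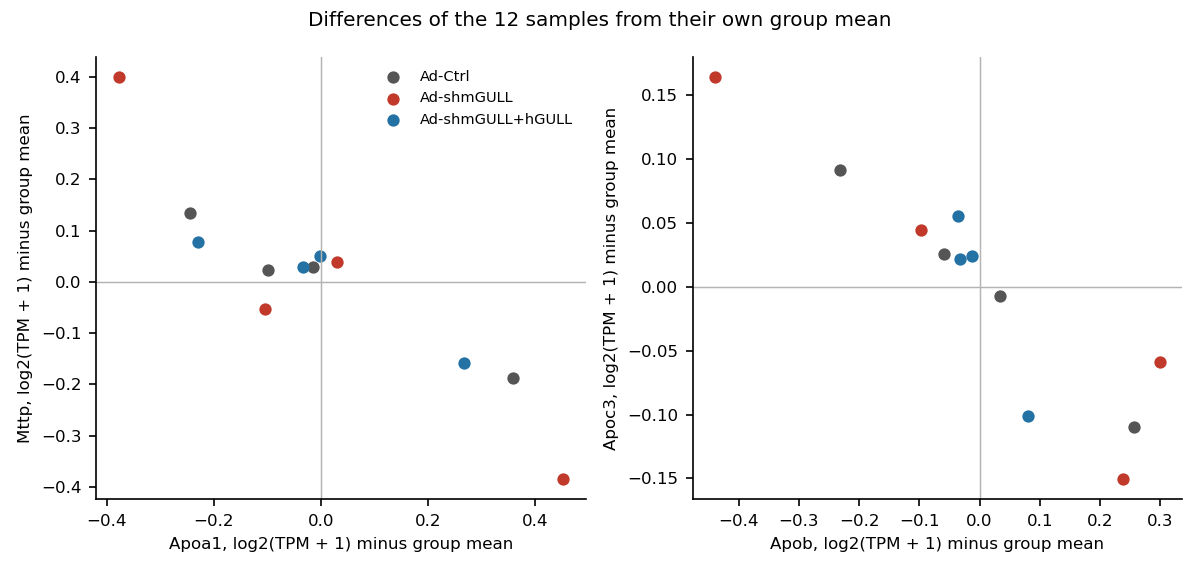
Difference of each of the 12 samples from the mean of its own group, in log2(TPM + 1), for Apoa1 (horizontal) against Mttp (vertical) and for Apob against Apoc3. Over the 12 samples r was -0.922 for Apoa1 and Mttp and -0.920 for Apob and Apoc3, and Ad-shmGULL replicates 1 and 4 were each on the same side of their group's mean for Apoa1 and Mttp.

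Within the groups the spread was uneven. In the rescue group the coefficient of variation was 3.88% for Apob, 4.68% for Apoc3 and 7.21% for Mttp, and in the knockdown group it was 22.4%, 9.43% and 22.5% for the same genes, against 14.2%, 5.76% and 9.16% in control. It was smaller in rescue than in knockdown for 8 of the 10 genes and larger for Apoa4 (29.1% against 14.3%) and Apom (6.78% against 4.68%). The scaling factors from the median of ratios ran from 0.859 in Ad-Ctrl replicate 2, the sample with the highest Apoa1 level, to 1.14 in Ad-shmGULL replicate 2, the sample with the lowest. Protein-coding genes took 77.3% of all TPM in Ad-shmGULL replicate 1 and between 81.1% and 85.2% in the other samples. With all samples rescaled to their protein-coding total, Mttp was 0.84 higher on the log2 scale in knockdown than in control (limma adjusted p = 0.0123).

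The genes whose log2 levels were most like those of a selected gene over all 12 samples were sought for the 3 genes with the smallest limma F-test p among 9517 other protein-coding genes with a mean TPM of at least 5. For Mttp they were Slc6a13 (Pearson r = 0.982), Surf4 (0.974) and Mrs2 (0.971). For Apoa1 they were Agxt (0.931), Magix (0.907) and Serpinf2 (0.907), and for Apoa4 Tlr12 (0.929), Pla2g15 (0.910) and Coq6 (0.905). These values hold the group differences as well as the differences within groups.

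Lists of genes around the selected genes are given beside the shares of all tested genes called, 3.23% in knockdown minus control and 2.15% in rescue minus control, and 1 call in a list is a value of that gene and not of its list. Of 15 genes of Apob editing and VLDL lipidation, all tested, 1 was called higher in knockdown minus control and 1 in rescue minus control, in each case Ces1d, an endoplasmic reticulum carboxylesterase that mobilises stored triglyceride for VLDL. Ces1d stood at 645.8, 549.7, 847.0 and 673.4 TPM in the Ad-Ctrl samples, between 942.1 and 1138 TPM in knockdown and between 946.9 and 1195 TPM in rescue, so both hairpin groups lay above all control samples. Of all tested genes, 6.93% lay above all control samples in knockdown and 21.4% in rescue. The limma log2 fold change of Ces1d was 0.61 in knockdown minus control (adjusted p = 0.0295), 0.63 in rescue minus control (adjusted p = 0.0414) and 0.03 in rescue minus knockdown. The median over the 15 genes was 0.11, 0.22 and 0.14 in the same order. Under the fold rule 2 of the 15 genes were higher in knockdown minus control and 3 in rescue minus control, against 5.35% and 6.84% of all tested genes.

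The call of Ces1d in knockdown minus control was lost without Ad-Ctrl replicate 2 (adjusted p = 0.0814) or replicate 4 (0.0641), and without Ad-shmGULL replicate 1 (0.0554) or replicate 2 (0.0796). It was also lost with no filter (0.0682), median-of-ratios scaling (0.0685), only the 2 groups fitted (0.105), array weights (0.0572) or the replicate block (0.0526). In rescue minus control the call of Ces1d was lost without any 1 of 8 libraries, namely Ad-Ctrl replicates 2, 3 and 4, Ad-shmGULL replicate 4 and all 4 rescue replicates, with adjusted p-values from 0.0532 to 0.142. In 7 of 11 other settings this call was lost as well, with adjusted p-values from 0.0552 with no trend to 0.215 with median-of-ratios scaling, where the fold change of Ces1d was 0.43.

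Of 16 genes for the export of lipoproteins from the endoplasmic reticulum, 1 was called in knockdown minus control and 0 in rescue minus control. The called gene was Surf4, a cargo receptor of the endoplasmic reticulum, at 233.5 ± 16.2 TPM in control, 293.6 ± 27.7 in knockdown and 280.1 ± 11.5 in rescue. Its limma log2 fold change was 0.33 in knockdown minus control (adjusted p = 0.0495), 0.26 in rescue minus control (adjusted p = 0.0885) and -0.06 in rescue minus knockdown, and in both comparisons with control its samples did not overlap with the control samples. Over all tested genes, 6.93% lay above control with no overlap in knockdown and 21.4% in rescue. The knockdown call of Surf4 was lost without any 1 of 11 libraries, that is all but Ad-shmGULL replicate 3, with adjusted p-values from 0.058 to 0.136, and in rescue minus control Surf4 was called without Ad-shmGULL replicate 2 (adjusted p = 0.0483). In 8 of 11 other settings the knockdown call was lost, with adjusted p-values from 0.0582 to 0.172, and in rescue minus control Surf4 was called with only the 2 groups fitted (0.0429) and with array weights (0.0407). Under median-of-ratios scaling the fold change of Surf4 was 0.22 in knockdown minus control (adjusted p = 0.0963) and 0.059 in rescue minus control (adjusted p = 0.744). Rescue minus knockdown of Surf4 was -0.16 under this scaling and -0.0013 without Ad-shmGULL replicate 2.

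The other lists held at most 1 call each. Of 12 other apolipoproteins 10 were tested, and limma called 0 in any comparison, with medians of -0.20 in knockdown minus control, 0.16 in rescue minus knockdown and -0.05 in rescue minus control. Of these, Saa4, a serum amyloid A protein of HDL singled out after its values were seen, met the fold rule in 2 comparisons, at -0.60 in knockdown minus control (limma adjusted p = 0.0547) and 0.55 in rescue minus knockdown (limma adjusted p = 0.324), where its samples did not overlap. The fold rule took 3% of all tested genes in rescue minus knockdown, and for 6.38% the samples did not overlap in either direction. Apof (-0.20) and Apon (-0.33, limma adjusted p = 0.0579) were the 2 of 10 whose knockdown samples lay below all control samples, and Apoc4 (-0.44) the 1 whose rescue samples did, against 2.06% and 0.855% of all tested genes. The 8 genes of lipolysis in plasma and its inhibitors and the 7 genes of HDL formation had 0 calls, with medians of 0.20 and 0.06 in knockdown minus control, 0.12 and 0.12 in rescue minus knockdown and 0.17 and 0.15 in rescue minus control. Under the fold rule Pltp, of the HDL formation list, was higher in knockdown minus control (0.96, limma adjusted p = 0.0795), against 5.35% of all tested genes. In the other comparisons, and for the lipolysis list, the fold rule took 0 genes. Of 20 transcription factors of apolipoprotein genes, 0 were called in knockdown minus control and 1 in rescue minus control, with medians of -0.0084 and 0.13, and 0.12 in rescue minus knockdown. In rescue minus knockdown limma called 0 genes of each list given here.

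The transcription factor called was Foxa1, a forkhead factor of the liver, at 19.5 ± 2.53 TPM in control, 23.7 ± 2.62 in knockdown and 28.3 ± 1.78 in rescue. Its limma log2 fold change was 0.27 in knockdown minus control (adjusted p = 0.189), 0.25 in rescue minus knockdown (adjusted p = 0.442) and 0.52 in rescue minus control (adjusted p = 0.0414). All rescue samples of Foxa1, from 25.8 TPM upwards, lay above all knockdown samples, of which the highest was 25.5 TPM. Rescue and knockdown did not overlap, in either direction, for 6.38% of all tested genes. The call of Foxa1 was lost without any 1 of 8 libraries, namely Ad-Ctrl replicates 2, 3 and 4, Ad-shmGULL replicate 4 and all 4 rescue replicates, with adjusted p-values from 0.0532 to 0.142. In 7 of 11 other settings it was lost too, with adjusted p-values from 0.0565 to 0.134. The fold change of Foxa1 in rescue minus control was 0.32 under median-of-ratios scaling (adjusted p = 0.134) and 0.33 under quantile normalization (adjusted p = 0.132), in knockdown minus control 0.16 under median-of-ratios scaling, and in rescue minus knockdown 0.14 under quantile normalization.

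**Figure D5:**
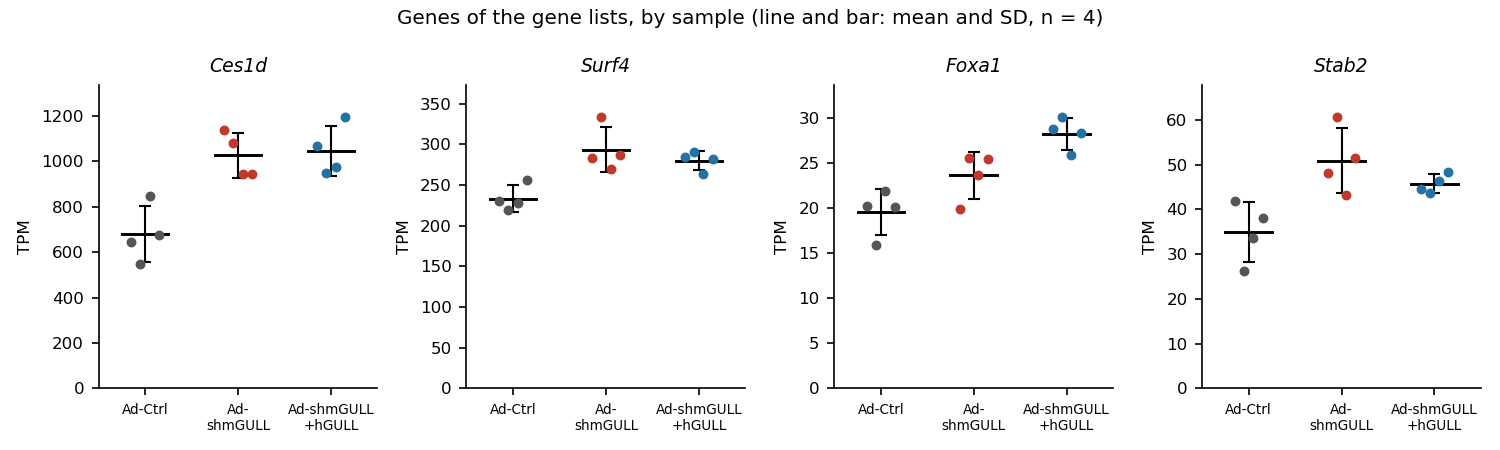
TPM of Ces1d, Surf4, Foxa1 and Stab2 (vertical axes, from 0) in the 4 samples of each group, with the mean as a line and the SD as a bar. The mean of Ces1d was 679 TPM in Ad-Ctrl, 1027 TPM in Ad-shmGULL and 1046 TPM in Ad-shmGULL+hGULL.

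The libraries are bulk liver RNA, in which fewer cells of a type and less RNA per cell cannot be told apart. The summed level of the 10 hepatocyte markers was 8.50%, 11.4%, 9.99% and 8.01% of all TPM in the Ad-Ctrl samples, from 8.73% to 9.90% in knockdown and from 7.30% to 8.56% in rescue. In summed level the ranges of rescue and control overlapped, with rescue replicates 1 (7.30%) and 4 (7.76%) below all control samples. limma called 0 of the 10 markers in any comparison, and their median log2 fold change was -0.29 in knockdown minus control, 0.11 in rescue minus knockdown and -0.26 in rescue minus control. In knockdown minus control 2 of the 10 lay below control with no overlap, Cps1 (-0.45, limma adjusted p = 0.0681) and Fgb (-0.52, limma adjusted p = 0.0501), against 2.06% of all tested genes, and the fold rule took 2 as lower, Fgb and Tat (-0.80), against 2.30%. The markers did not all fall in that comparison. Alb (0.024) and Ttr (0.14) were higher, Trf was at -0.0044, and the rest of the list was lower. The fold rule took Tat (-0.81) as lower in rescue minus control, against 0.641%. In summed level, which Alb dominates, all 4 rescue samples lay below all 4 knockdown samples, while 6 of the 10 markers had a higher mean log2 level in rescue, and of the 10 markers 3 with lower values (Alb, Ttr and Trf) and 1 with higher values (Ambp) did not overlap between rescue and knockdown, against 6.38% of all tested genes. The median of the hepatocyte markers was thus below that of all tested genes in both comparisons with control, as was the value of Apoa1, and the part of hepatocyte content in the values of Apoa1 was not tested.

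Among the lists of other cell types, a call was made in the liver endothelial list. Of its 6 genes, all tested, 1 was called in knockdown minus control, Stab2, a scavenger receptor of sinusoidal endothelium and the most abundant gene of the list, and 2 (Stab2 and Oit3) had higher values with no overlap with control, against 3.23% and 6.93% of all tested genes. The summed level of the list was 181.6, 103.9, 131.5 and 167.3 TPM in the Ad-Ctrl samples, 179.0, 228.4, 174.6 and 195.6 TPM in the Ad-shmGULL samples and 166.4, 179.8, 171.3 and 201.9 TPM in the Ad-shmGULL+hGULL samples. Stab2 stood at 34.9 ± 6.72, 50.9 ± 7.31 and 45.8 ± 2.10 TPM, with a limma log2 fold change of 0.54 in knockdown minus control (adjusted p = 0.0476), 0.40 in rescue minus control (adjusted p = 0.103) and -0.14 in rescue minus knockdown. The knockdown call of Stab2 was lost without any 1 of 10 libraries, that is all but Ad-Ctrl replicate 1 and Ad-shmGULL replicate 3, with adjusted p-values from 0.0662 to 0.12, and Stab2 was called in rescue minus control without Ad-Ctrl replicate 1 (0.0489). The knockdown call was also lost with no filter (0.0926), only the 2 groups fitted (0.155), no trend (0.0692), the replicate block (0.0784) or protein-coding rescaling (0.0538). In rescue minus control Stab2 was called with array weights (0.026) and was 0.20 under median-of-ratios scaling (adjusted p = 0.389). Rescue minus knockdown of Stab2 was -0.23 under this scaling and -0.06 without Ad-shmGULL replicate 2. The list's median was 0.43 and 0.32 in the comparisons with control, Mttp was higher in the same groups, and the part of endothelial content in the level of Mttp was not tested.

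No gene of the other marker lists was called in any comparison. The most abundant were Cd5l (308.8 TPM over the 12 samples) of 10 Kupffer cell and macrophage markers, Nkg7 (14.4 TPM) of 10 T and NK cell markers, Cd79b (3.97 TPM) of 5 B cell markers and Dcn (48.2 TPM) of 7 stellate cell and fibroblast markers. Spp1 (83.4 TPM) was the most abundant of 5 cholangiocyte markers and Hbb-bs (331.4 TPM) of 5 red blood cell markers. The knockdown minus control medians of these lists were 0.38 (B cell), 0.28 (stellate cell), 0.27 (red blood cell) and 0.21 (T and NK cell). For Kupffer cell and cholangiocyte markers they were -0.04 and -0.01, against 0.087 for all tested genes. In rescue minus control the medians were 0.07, 0.16, 0.10, 0.26, -0.004 and 0.25 in the same order, against 0.17. The intestine also makes Apoa4, Apob and Mttp, and of 6 intestinal epithelium markers Cdx1, Cdx2 and Sis were listed at 0 in every sample, while Fabp2, the 1 gene of the list that was tested, stood at 138.4 TPM. Fabp2 was 0.39 in knockdown minus control (limma adjusted p = 0.2) and 0.48 in rescue minus control (limma adjusted p = 0.105), and the part of intestinal tissue in the levels of Apoa4, Apob and Mttp was not tested.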

How the data were processed

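Bulk liver RNA of 12 libraries, 4 in each of 3 groups named by the labels, was sequenced from strand-specific libraries. The deposited values are TPM for 55385 features of GRCm38.p6, computed by the authors, and the submitters' processing notes name fastp 0.23.2, FastQC 0.11.8, HISAT2 2.2.1.0 and featureCounts of Subread 2.0. TPM keeps no read depth, so depth is unknown and no count test was used. Of the features, 24575 were at 0 in every sample, among them 37 of 37 mitochondrial features.

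TPM plus a pseudocount of 1 was taken to log2, genes with a mean TPM of at least 1 were kept, and 1 limma model with a mean-variance trend was fitted to all 3 groups (R 4.3.3, limma 3.58.1), with Benjamini-Hochberg adjustment over the tested genes. Exact permutation tests were also run in R, and motif counts and figures were made with Python 3.11.15, pandas 2.3.3, scipy 1.17.1 and matplotlib 3.10.9. The fitting steps were tested on simulated data. Gene positions and promoters are those of RefSeq for GRCm38.p6.

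The selected genes and the gene lists were chosen with earlier results of these data known. A further list is not reported here. Named were all selected genes, the called genes of each list (at most the 4 with the largest change against control), the most abundant gene of each marker list, and the 3 genes most like each of the 3 selected genes with the smallest limma F-test p. Genes named outside this rule (Oit3, Saa4, Apof, Apon, Apoc4, Pltp, Cps1, Fgb, Tat, Ttr, Trf, Ambp, Cdx1, Cdx2 and Sis) were chosen after their values were seen. Alternatives were a pseudocount of 0.1, other filters on low values, 3 other scalings, fits with only the 2 groups compared, without the trend, with array weights or with a replicate block, and leaving out each library. Rescaling to protein-coding genes and the ratios of 2 genes were added after the data had been seen.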

Additional observations from a re-analysis of the deposited data

Results flagged for a closer look

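Among the 4 rescue samples, Ad-shmGULL+hGULL replicate 2 stood apart for Apoa4, with 363.54 TPM against 227.37 TPM in the nearest and 207.43 TPM in the farthest of the other samples. Its gap to the nearest sample was 0.872 of the whole range of the group, above Dixon's 95% critical value for 4 samples. It was the 1 sample found in 30 groups of 4 examined (10 genes in 3 groups), and chance alone picks out about 1 in 20 groups.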

How the results depend on the processing

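Against control, Mttp kept its direction in all 23 alternatives, with log2 fold changes from 0.70 to 0.96 in knockdown and from 0.50 to 0.76 in rescue, and Apoa1 and Apoa4 kept theirs, from -0.75 to -0.32 and from 0.61 to 1.03 in knockdown and from -0.81 to -0.26 and from 0.29 to 0.72 in rescue. In knockdown minus control limma called 0 of the 10 selected genes when only the 2 groups were fitted, and 1 to 2 when a library was left out, the added gene being Apoa4 without Ad-Ctrl replicate 1 and Apoa1 without Ad-shmGULL replicate 3. In rescue minus control limma called 0 of the 10 with no filter, with median-of-ratios scaling, with quantile normalization, without the 20 highest genes, without the trend, with the replicate block and with rescaling to protein-coding genes, and 0 to 1 when a library was left out. The fold rule took 1 of the 10 genes in rescue minus control with no filter, with quantile normalization or with array weights, and 1 (without Ad-Ctrl replicate 2) to 3 (without Ad-Ctrl replicate 1) when a library was left out. The cause of these changes was not tested.

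Over all tested genes limma called 529 in knockdown minus control, 33 when only the 2 groups were fitted and 1057 without Ad-shmGULL replicate 3. In rescue minus control it called 352, 3 without Ad-Ctrl replicate 3 and 3184 with array weights, and in rescue minus knockdown 0 to 2. Of the 529 calls 399 were higher and 130 lower, against 332 and 351 once samples were scaled by the median of ratios, and 339 and 288 once they were quantile normalized, while in rescue minus control 348 were higher and 4 lower, against 7 and 2 with no filter, 10 and 1 with median-of-ratios scaling and with quantile normalization, and 12 and 0 without the 20 highest genes.

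Small differences changed sign with the scaling. In knockdown minus control Apoa2 was 0.26 with quantile normalization and 0.071 with array weights, Apob was -0.091 with median-of-ratios scaling and -0.0072 without the 20 highest genes, and with quantile normalization Apoc3 was 0.15 and Apoe 0.096. In rescue minus knockdown, median-of-ratios scaling gave -0.094 for Apoa1, -0.090 for Apoc3, -0.041 for Apom and -0.069 for Ces1d. Rescaling without the 20 highest genes gave -0.067 for Apoa1, -0.063 for Apoc3, -0.014 for Apom and -0.042 for Ces1d. Quantile normalization gave 0.21 for Apoa2, -0.14 for Apoc3, 0.18 for Apoe, -0.0098 for Apom and -0.016 for Ces1d, and array weights gave -0.021 for Apoa1 and 0.028 for Apoa5. Rescaling to protein-coding genes, chosen after seeing the data, gave -0.029 for Apoa1, -0.025 for Apoc3 and -0.0043 for Ces1d. In rescue minus control quantile normalization gave 0.46 for Apoa2 and 0.27 for Apoe, and Apoc3 was -0.20 with median-of-ratios scaling, -0.091 without the 20 highest genes and -0.027 with protein-coding rescaling. As shares of the protein-coding total the 10 genes took 6.16%, 5.37% and 5.22% in control, knockdown and rescue.

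Leaving out 1 library at a time gave these ranges for the values that changed sign. In knockdown minus control they were -0.13 to 0.047 for Apoa2, -0.080 to 0.17 for Apob, -0.056 to 0.049 for Apoc3 and -0.17 to 0.014 for Apoe. In rescue minus knockdown they were -0.13 to 0.15 for Apoa1, -0.13 to 0.0086 for Apoa2, -0.14 to 0.10 for Apoa5, -0.046 to 0.059 for Apoc3, -0.18 to 0.0078 for Apoe, -0.26 to 0.0037 for Mttp and -0.040 to 0.077 for Ces1d. In rescue minus control Apoc3 ran from -0.033 to 0.037.

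The groups share replicate numbers 1 to 4. Samples with the same number showed little common deviation (correlations from -0.24 to 0.15, 1 of 12 pairs above 0.1, and 4 of 12 samples closest to their own number), so no pairing by number was seen. A weak pairing could be missed with 4 samples a group. With the replicate block limma called 418 genes in knockdown minus control and 71 in rescue minus control, and the adjusted p of Mttp was 0.0212 and 0.0559. With 4 samples a group the 95% intervals of the 10 genes reach 0.18 to 0.54 on the log2 scale to either side. Smaller differences were not detectable, and larger ones could still miss the adjusted threshold. Apoa4 in knockdown minus control, at 0.82, did so (limma adjusted p = 0.0874). The unknown depth allows no counting error.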
